A study of Danio rerio with 24 samples.

Results

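Vitamin D signalling was followed here through 6 genes of the zebrafish embryo: the hydroxylases cyp2r1, cyp27b1 and cyp24a1, the duplicated receptors vdra and vdrb, and the calcium channel gene trpv6. They were picked by name from a table of 23219 genes, and each name occurred once. All 6 were among the 22340 genes that passed the filter on low counts. The choice was made with measured values of these embryos known. The effect of UVB on these genes, its difference between genotypes and the genotype difference in mock embryos are therefore described without their p-values. Where calls of members in these contrasts are counted, they are no evidence, as the contrasts chose the members.

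The libraries came from embryos of 2 genotypes, maternal eevs mutants (Meevs) and wild type (WT), irradiated with 450 J of UVB, or mock treated, at 24 hpf (hours post fertilization). The sample titles call the embryos of the mock groups untreated. Embryos were kept in the dark at 28.5C before and after the exposure, and collection followed at 29 hpf (5 h) or 48 hpf (24 h). The 8 groups, with 3 libraries each, were Meevs UVB 5 h, Meevs UVB 24 h, Meevs mock 5 h, Meevs mock 24 h, WT UVB 5 h, WT UVB 24 h, WT mock 5 h and WT mock 24 h. The enzyme encoded by eevs belongs to the pathway that makes gadusol, a UVB-absorbing compound that zebrafish mothers place in their eggs. The sources used here give neither the lesion in eevs nor the alleles that the embryos themselves carry, and the dose has no area. They also do not say whether replicates were separate clutches, so the p-values measure the spread between these libraries, which may be technical.

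UVB is known to turn a dehydrocholesterol in vertebrate skin into previtamin D. CYP2R1 then makes calcidiol, the circulating form, CYP27B1 makes calcitriol, the hormone, and CYP24A1 breaks both down. Calcitriol acts through the vitamin D receptor, a nuclear receptor that pairs with a retinoid X receptor, and CYP24A1 is among the best known genes it switches on. In zebrafish the trpv6 channel takes up calcium from the water through ionocytes of the skin and gills.

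The libraries held 22395870 to 44691629 counts. All WT libraries belong to 1 library series in the descriptions and all Meevs libraries to another, so genotype and library series cannot be told apart. Levels are in CPM (read counts brought to a common library size, with TMM scaling), which is not corrected for gene length, so levels were compared between groups and not between genes. Where groups are said to be separate or to overlap, only their 3 libraries each are described. The share of all genes whose libraries separate in this way was not counted, so separation is no evidence for a difference. In whole embryos, fewer cells of a type and less RNA per cell cannot be told apart. The members had modest counts: vdra had 7 to 85 counts per library, and cyp24a1 had 27 to 695. In 4 groups 1 library stood apart from the other replicates on the leading principal components. These were WT UVB 5 h replicate 3, WT UVB 24 h replicate 1, Meevs mock 5 h replicate 3 and Meevs UVB 24 h replicate 3. Some of the values that differ without these 4 libraries are given in the last section.

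Cyp24a1, the enzyme that inactivates the hormone (ENSDARG00000103277, GRCz11 chromosome 6, 55852274 to 55864687, minus strand), was higher after UVB in both genotypes at both times. At 5 h the Meevs UVB libraries had 14.2, 11.4 and 9.996 CPM, against 2.59, 1.79 and 3.16 CPM in Meevs mock libraries. The log2 fold change was 2.24 ± 0.20 (± SE throughout), a 4.74-fold difference. In WT at 5 h it stood at 4.44, 3.88 and 3.74 CPM after UVB and at 1.38, 1.3 and 1.015 CPM after mock exposure, a log2 fold change of 1.69 ± 0.23. No UVB library overlapped its mock group. At 24 h the Meevs UVB libraries reached 17.6, 20.8 and 23.1 CPM, against 9.76, 5.67 and 8.13 CPM in Meevs mock libraries, with a log2 fold change of 1.4 ± 0.16. The WT libraries at 24 h had 3.29, 3.25 and 2.54 CPM after UVB and 1.21, 1.43 and 1.27 CPM after mock exposure, with a log2 fold change of 1.22 ± 0.22. UVB and mock libraries were again separate in both genotypes.

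Cyp24a1 also differed between genotypes without UVB. Its mock level averaged 2.51 ± 0.687 CPM in Meevs and 1.23 ± 0.190 CPM in WT at 29 hpf (SD, n = 3 each), a log2 difference of 1.01 ± 0.25. At 48 hpf it averaged 7.85 ± 2.06 CPM in Meevs and 1.3 ± 0.114 CPM in WT mock embryos, a 5.96-fold difference (log2 2.58 ± 0.21). Unexposed Meevs embryos at 48 hpf thus stood above every WT library, UVB-exposed ones included. The 8 groups ran from Meevs UVB 24 h at 20.5 ± 2.78 CPM down to WT mock 5 h at 1.23 CPM. In that order WT UVB 24 h overlapped Meevs mock 5 h, WT mock 24 h overlapped WT mock 5 h, and the other neighbours were separate. The UVB effect on the log2 scale was 0.55 ± 0.31 larger in Meevs than in WT at 5 h and differed by 0.18 ± 0.28 at 24 h. The value at 5 h was 0.36 without Meevs UVB 5 h replicate 1 or Meevs mock 5 h replicate 2, and the value at 24 h lay between -0.03 (without Meevs mock 24 h replicate 2) and 0.35 (without Meevs mock 24 h replicate 1).

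**Figure D1:**
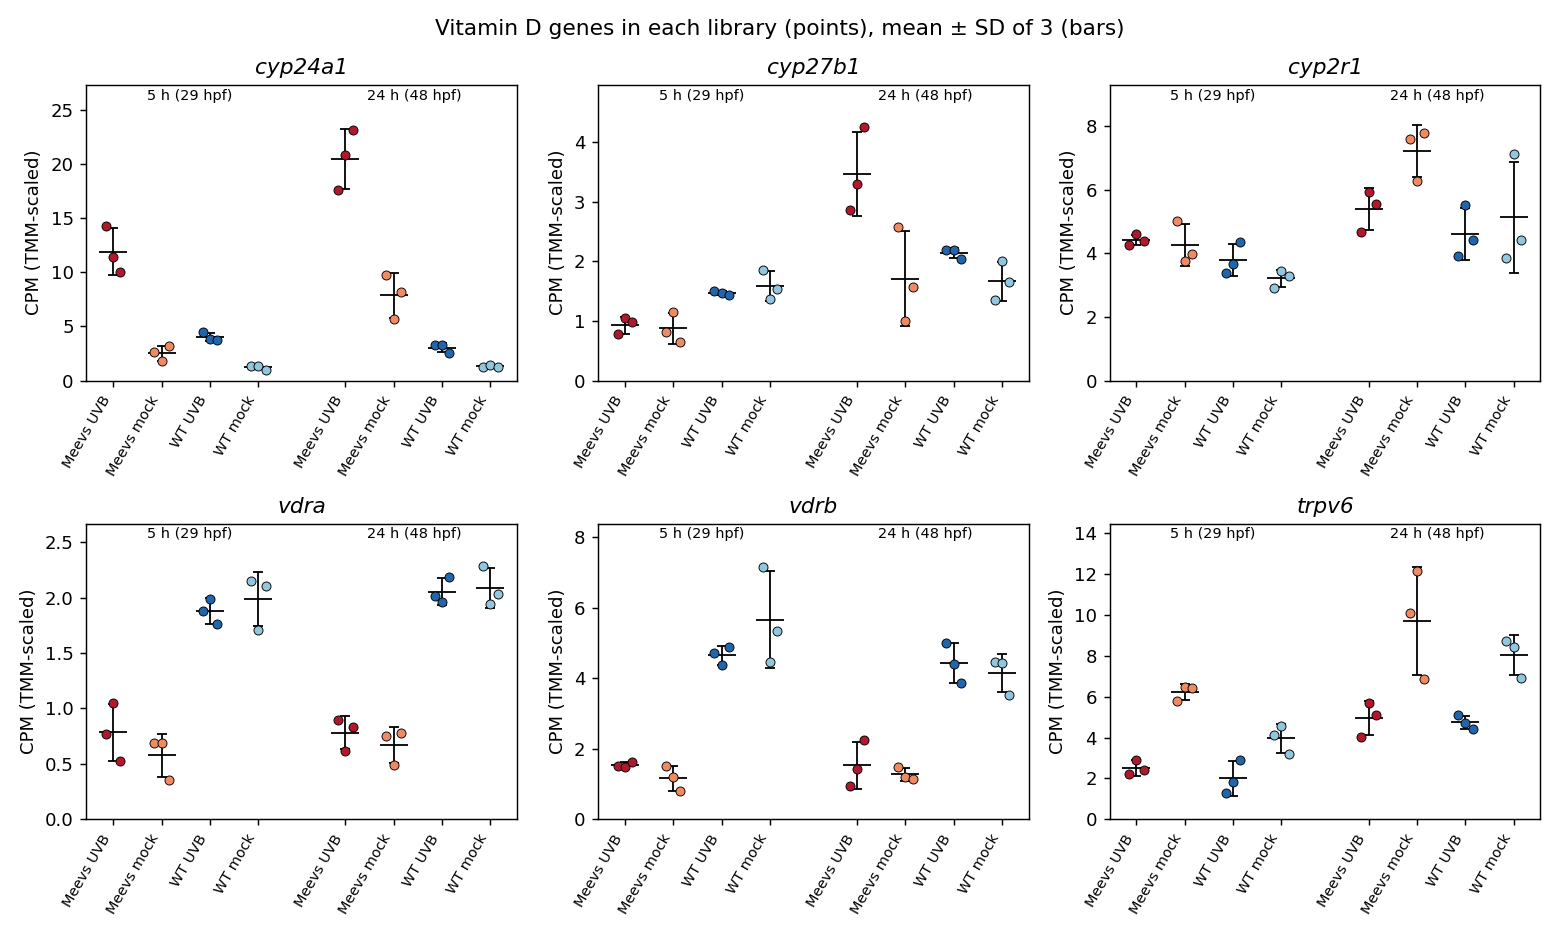
CPM of the 6 vitamin D genes in all 24 libraries; points are libraries, horizontal bars the group mean and error bars the SD of 3, with 5 h on the left of each panel and 24 h on the right. The cyp24a1 points lie higher after UVB than after mock exposure in each of the 4 pairs of groups and the trpv6 points lie lower, while vdra and vdrb separate the genotypes.

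The hydroxylase that makes the hormone, cyp27b1 (ENSDARG00000045015, chromosome 11, 329687 to 339847, plus strand), stood higher after UVB in Meevs at 24 h. Its levels there were 2.86, 3.30 and 4.25 CPM after UVB, against 2.58, 0.997 and 1.56 CPM after mock exposure, a log2 fold change of 1.06 ± 0.24. The groups did not overlap, but the highest mock library was close to the lowest UVB library. In WT at 24 h the levels were 2.19, 2.19 and 2.04 CPM after UVB and 1.34, 2.002 and 1.65 CPM after mock exposure, with a log2 fold change of 0.37 ± 0.24. The WT groups were also separate, by a narrow margin. At 5 h the log2 fold change was 0.10 ± 0.32 in Meevs and -0.12 ± 0.26 in WT, and the libraries overlapped in both. The difference of the UVB effects, Meevs minus WT, was 0.22 ± 0.41 at 5 h and 0.69 ± 0.34 at 24 h.

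Without UVB, cyp27b1 averaged 0.874 ± 0.253 CPM in Meevs and 1.59 ± 0.249 CPM in WT at 29 hpf (SD, n = 3 each), a log2 difference of -0.86 ± 0.30, and the libraries did not overlap. At 48 hpf the averages were 1.71 ± 0.802 CPM in Meevs and 1.66 ± 0.329 CPM in WT, a log2 difference of 0.01 ± 0.25. Across the 8 groups, Meevs UVB 24 h (3.47 ± 0.712 CPM) stood alone at the top. Both Meevs groups at 5 h had the lowest means, and the WT groups and Meevs mock 24 h lay between, each overlapping its neighbours within that middle range.

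The first hydroxylase of the pathway, cyp2r1 (ENSDARG00000056587, chromosome 7, 27455321 to 27697234, plus strand), spans 242 kb, the longest of the 6 genes. At 5 h its levels were 4.27, 4.59 and 4.39 CPM in Meevs UVB, against 5.00, 3.77 and 3.96 CPM in Meevs mock libraries, with a log2 fold change of 0.06 ± 0.19. In WT at 5 h the log2 fold change was 0.25 ± 0.19. UVB and mock libraries overlapped in both genotypes at 5 h. Over the 472 tested genes with spans over 200 kb, the median log2 fold change at 5 h was -0.82 in Meevs and -0.33 in WT. Cyp2r1 thus lay above the median of its span class in both genotypes at 5 h, which did not hold at 24 h.

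At 24 h the cyp2r1 levels were 4.65, 5.94 and 5.55 CPM in Meevs UVB and 7.59, 6.26 and 7.78 CPM in Meevs mock libraries. All UVB libraries lay below all mock libraries, with a log2 fold change of -0.42 ± 0.18. The log2 fold change in WT at 24 h was -0.15 ± 0.18, and the libraries overlapped. The median of the span class over 200 kb at 24 h was -0.19 in Meevs and -0.15 in WT. Cyp2r1 lay below it in Meevs and level with it in WT. In mock embryos the log2 difference of Meevs from WT was 0.41 ± 0.20 at 29 hpf and 0.49 ± 0.17 at 48 hpf, where the libraries overlapped because WT mock 24 h replicate 2 stood at 7.12 CPM. Calca, the calcitonin gene, overlaps cyp2r1 on the opposite strand over 16403 bases and had 24 to 262 counts per library. No source used here says whether the counting read the strand, so reads of the pair may be mixed. Calca itself had a log2 fold change after UVB of 0.59 ± 0.15 in Meevs at 24 h, opposite in sign to that of cyp2r1.

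**Figure D2:**
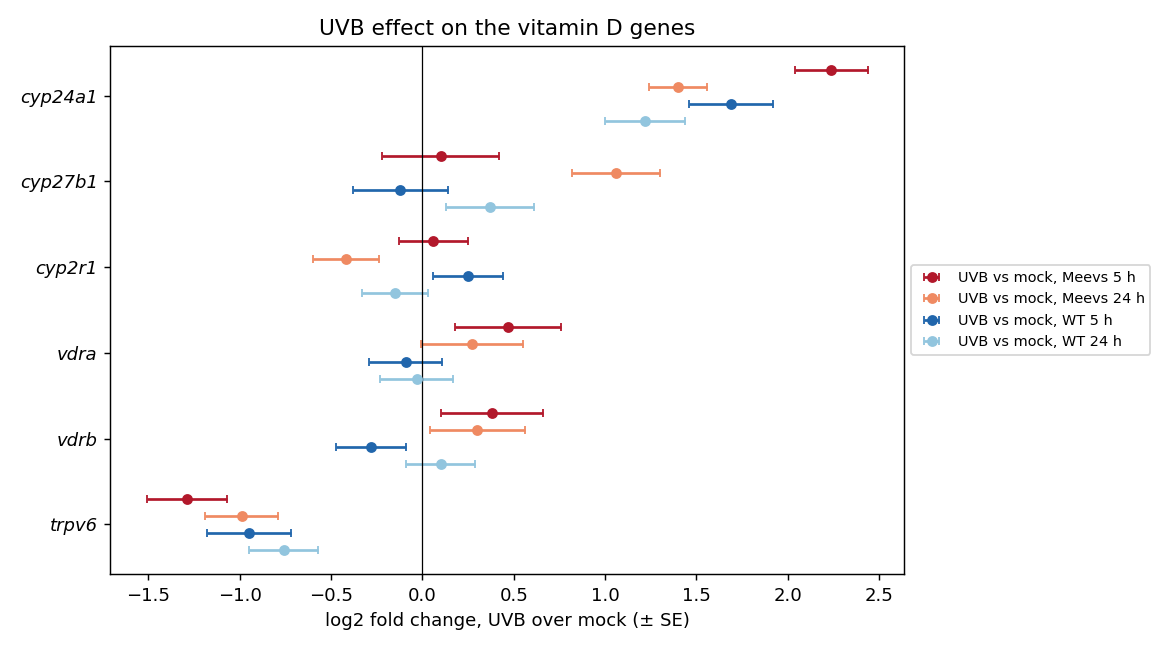
Log2 fold change of UVB over mock for the 6 genes (x axis, points with ± SE bars) in Meevs and WT at 5 h and 24 h. Cyp24a1 lies between 1.22 and 2.24 and trpv6 between -1.29 and -0.76, and the receptors lie within 0.47 of 0.

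The receptor genes differed between genotypes far more than with UVB. Vdra (ENSDARG00000099483, chromosome 23, 45822935 to 45825632, plus strand) had 0.690, 0.689 and 0.351 CPM in Meevs mock libraries at 29 hpf, against 2.15, 1.71 and 2.11 CPM in WT mock libraries. The log2 difference was -1.76 ± 0.26, a level 3.38 times higher in WT. At 48 hpf vdra had 0.748, 0.486 and 0.782 CPM in Meevs and 2.28, 1.94 and 2.03 CPM in WT mock libraries, a log2 difference of -1.68 ± 0.24. Every Meevs library lay below every WT library at both stages.

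Vdrb (ENSDARG00000070721, chromosome 6, 38954733 to 39006449, minus strand) followed the same direction. At 29 hpf it had 1.51, 1.195 and 0.803 CPM in Meevs mock libraries, against 7.17, 4.48 and 5.34 CPM in WT mock libraries, a log2 difference of -2.26 ± 0.24. At 48 hpf it had 1.495, 1.201 and 1.13 CPM in Meevs and 4.46, 4.45 and 3.52 CPM in WT mock libraries, a log2 difference of -1.70 ± 0.23. The genotypes were again separate at both stages. After UVB the order was the same: vdrb averaged 1.54 ± 0.0710 CPM in Meevs and 4.66 ± 0.267 CPM in WT at 5 h, and vdra averaged 0.783 ± 0.260 CPM in Meevs and 1.88 ± 0.114 CPM in WT (SD, n = 3 each).

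UVB and mock libraries differed little in the receptor genes against the spread of the libraries. For vdra the log2 fold change was 0.47 ± 0.29 in Meevs and -0.09 ± 0.20 in WT at 5 h, and 0.27 ± 0.28 in Meevs and -0.03 ± 0.20 in WT at 24 h. For vdrb it was 0.38 ± 0.28 in Meevs and -0.28 ± 0.19 in WT at 5 h, and 0.30 ± 0.26 in Meevs and 0.10 ± 0.19 in WT at 24 h. UVB and mock libraries overlapped in all of these. The vdrb value in Meevs at 24 h rests on replicate 3 of the UVB group, at 2.26 CPM, and becomes -0.17 without it. The difference of the UVB effects, Meevs minus WT, was 0.56 ± 0.36 for vdra and 0.66 ± 0.34 for vdrb at 5 h. At 24 h it was 0.30 ± 0.34 for vdra and 0.21 ± 0.33 for vdrb.

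Gene span and distance from eevs were set beside the genotype difference of the receptors. Genes with longer spans were lower in Meevs mock embryos: the median log2 difference at 29 hpf and 48 hpf was 0.23 and 0.28 for genes up to 10 kb, the class of vdra, and -0.20 and -0.24 for genes of 30 to 100 kb, the class of vdrb. Vdra spans 2.7 kb. Both receptors lay below their class medians at both stages, and the vdra difference was opposite in sign to the median of its class. Vdrb lies 4.48 Mb from eevs on chromosome 6, and cyp24a1 lies 12.4 Mb from eevs on the same chromosome. Among the 198 tested genes within 5 Mb of eevs, 53.5% were called different between genotypes at 29 hpf and 58.6% at 48 hpf, against 47.7% and 52.7% of all genes. On chromosome 6 as a whole the shares were 51.7% and 56.3%. The median absolute log2 difference was 0.36 and 0.39 within 5 Mb of eevs, against 0.36 and 0.37 for all genes. The part of these measures in the genotype differences of the receptors and of cyp24a1 was not tested.

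Trpv6 (ENSDARG00000014496, chromosome 16, 12294284 to 12319822, minus strand) was lower after UVB in both genotypes at both times. At 5 h it had 2.21, 2.92 and 2.40 CPM in Meevs UVB, against 5.78, 6.48 and 6.42 CPM in Meevs mock libraries, a log2 fold change of -1.29 ± 0.22. In WT at 5 h it had 1.27, 1.82 and 2.92 CPM after UVB and 4.13, 4.54 and 3.196 CPM after mock exposure, a log2 fold change of -0.95 ± 0.23. The WT groups were separated by a narrow margin, between UVB replicate 3 and mock replicate 3. At 24 h the levels were 4.04, 5.70 and 5.11 CPM in Meevs UVB and 10.1, 12.1 and 6.87 CPM in Meevs mock libraries, a log2 fold change of -0.99 ± 0.20. In WT at 24 h they were 5.09, 4.69 and 4.44 CPM after UVB and 8.74, 8.42 and 6.91 CPM after mock exposure, a log2 fold change of -0.76 ± 0.19. UVB libraries lay below mock libraries in each comparison.

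In mock embryos trpv6 averaged 6.23 ± 0.389 CPM in Meevs and 3.96 ± 0.690 CPM in WT at 29 hpf (SD, n = 3 each), a log2 difference of 0.65 ± 0.21 with separate libraries. At 48 hpf it averaged 9.70 ± 2.66 CPM in Meevs and 8.02 ± 0.977 CPM in WT, a log2 difference of 0.29 ± 0.19 with overlapping libraries. The UVB effect, Meevs minus WT, was -0.34 ± 0.32 at 5 h and -0.23 ± 0.28 at 24 h. The value at 5 h was 0.09 without WT UVB 5 h replicate 3, so its sign rests on that library. The uncharacterised gene si:dkey-26c10.5 overlaps trpv6 on the opposite strand over 185 bases and had 11 to 133 counts per library.

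Markers of the ionocytes, the cells that carry trpv6 in zebrafish skin, also moved with UVB. At 5 h in Meevs 1 of 19 ionocyte markers rose and 11 fell (edgeR quasi-likelihood test, Benjamini-Hochberg adjusted p under 0.05 over all genes, as for every call below), 63.2% called against 34.4% of all genes, with a median log2 fold change of -0.55 against 0.05 for all genes. In WT at 5 h 7 fell and 0 rose, 36.8% against 12.7%, with a median of -0.21 against 0. At 24 h 4 rose and 7 fell in Meevs, 57.9% against 20.4%, and 5 fell in WT, 26.3% against 2.24%. The medians at 24 h were -0.18 in Meevs and -0.15 in WT, against 0 for all genes in both. The sodium pump genes atp1b1b (-1.29 ± 0.08 in Meevs and -0.99 ± 0.08 in WT at 5 h) and atp1a1a.2 (-1.29 ± 0.09 in Meevs and -0.94 ± 0.09 in WT) fell, as did slc12a10.2, the cotransporter of another ionocyte type (-2.71 ± 0.43 in Meevs and -2.40 ± 0.40 in WT). The atp1a1a genes and slc12a10.2 have close copies, between which counting may divide reads. The lowest library count of slc12a10.2 was 0, so its fold changes start near the floor. The sodium pump genes did not all move together: atp1a1a.1 rose in Meevs at 5 h (0.22 ± 0.06, adjusted p = 0.00494) and had a log2 fold change of 0.13 ± 0.06 in WT (adjusted p = 0.155). Atp1a1a.4 fell in Meevs at 5 h (-0.24 ± 0.09, adjusted p = 0.0415) and had -0.06 ± 0.09 in WT (adjusted p = 0.756). The 4 markers that rose in Meevs at 24 h were slc9a3.2, a sodium-proton exchanger gene (1.06 ± 0.21, adjusted p = 0.000654), the carbonic anhydrase gene ca15a (0.32 ± 0.10, adjusted p = 0.0224), atp1a1a.4 (0.30 ± 0.09, adjusted p = 0.0187) and atp1a1a.1 (0.29 ± 0.06, adjusted p = 0.000703). The ionocyte transcription factor gene foxi3a fell at 5 h by 0.55 ± 0.13 in Meevs and by 0.39 ± 0.13 in WT on the log2 scale.

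The summed ionocyte markers were 915 to 933 CPM in Meevs UVB and 1010 to 1070 CPM in Meevs mock libraries at 5 h, and 850 to 897 CPM in WT UVB and 927 to 971 CPM in WT mock libraries. At 24 h they were 869 to 947 CPM in Meevs UVB and 856 to 886 CPM in Meevs mock libraries, which overlapped, and 815 to 848 CPM in WT UVB and 864 to 930 CPM in WT mock libraries. At 5 h atp1a1a.1 alone made up 499 ± 8.16 CPM in Meevs UVB libraries, against 429 ± 28.2 CPM in Meevs mock libraries (SD, n = 3 each). No marker was at 0 in every library of a group, but the lowest library count of slc12a10.2 and of rhcgb was 0. Keratinocyte markers fell as well, 8 of 10 in Meevs and 6 of 10 in WT at 5 h (80% and 60% called, against 34.4% and 12.7% of all genes). At 24 h 3 of them rose and 6 fell in Meevs (90% called, against 20.4% of all genes). In WT at 24 h 1 rose and 3 fell (40% called, against 2.24%). The part of these markers in the trpv6 difference was not tested.

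**Figure D3:**
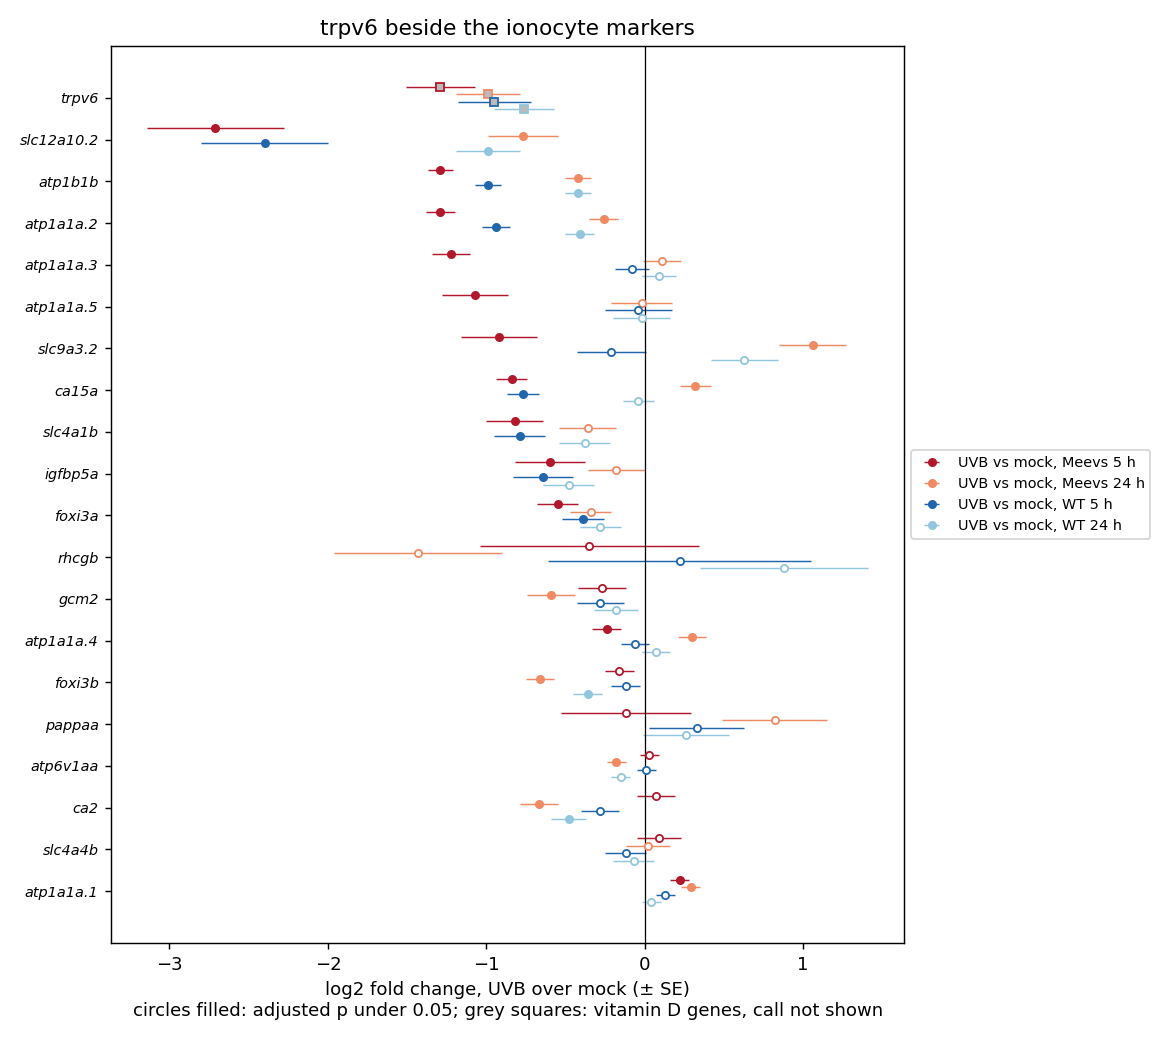
Log2 fold change of UVB over mock (x axis, ± SE) for trpv6 (grey squares) and the 19 ionocyte markers (circles, filled where the adjusted p is under 0.05) in 4 comparisons. At 5 h in Meevs 11 markers fell, atp1b1b and atp1a1a.2 by as much on the log2 scale as trpv6 differed, while at 24 h fewer markers fell.

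Set against all genes, 2 of the 6 genes were called in Meevs at 5 h, cyp24a1 higher and trpv6 lower, where 34.4% of all genes were called. In Meevs at 24 h 3 were called, cyp27b1 being the third, against 20.4% of all genes. In WT 2 were called at 5 h, against 12.7%, and 2 at 24 h, against 2.24%. For the difference of the UVB effects between genotypes edgeR called 0 members at either time, against 5.12% of all genes at 5 h and 2.40% at 24 h. 0 members had an unadjusted p under 0.05 there, and DESeq2 also called 0. Between genotypes in mock embryos 5 members were called at 29 hpf, against 47.7% of all genes, and 4 at 48 hpf, against 52.7%. The trpv6 call in WT was lost at 5 h without WT UVB 5 h replicate 1 and at 24 h without replicate 1 or 2 of WT mock 24 h or replicate 2 or 3 of WT UVB 24 h. These contrasts chose the members, and nothing is read from the counts.

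The rule that chose the genes named no difference between the stages, and this difference was tested in mock embryos. The level of each group was part of that rule, so the p-values for stage are not independent of the choice. In Meevs, 48 hpf against 29 hpf, cyp24a1 rose by 1.63 ± 0.20 (edgeR adjusted p = 9.26e-08) and cyp2r1 by 0.75 ± 0.18 (adjusted p = 0.000949) on the log2 scale. The later libraries lay above the earlier ones for both genes. Trpv6 rose by 0.66 ± 0.20 (edgeR adjusted p = 0.00548; 0.0705 without Meevs mock 24 h replicate 2). Cyp27b1 rose by 0.93 ± 0.30 (edgeR adjusted p = 0.00918), but its libraries overlapped and the call was lost without Meevs mock 24 h replicate 1 (adjusted p = 0.115). Vdra (0.16 ± 0.31, adjusted p = 0.726) and vdrb (0.11 ± 0.29, adjusted p = 0.766) did not pass the test. The 4 members called compare with 60.2% of all genes.

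In WT mock embryos, 48 hpf against 29 hpf, trpv6 rose by 1.02 ± 0.20 (edgeR adjusted p = 8.35e-05) and cyp2r1 by 0.67 ± 0.19 (adjusted p = 0.00283; 0.0719 without WT mock 24 h replicate 2). Vdrb fell by 0.45 ± 0.19 on the log2 scale (edgeR adjusted p = 0.0413), a call that was lost with DESeq2 (adjusted p = 0.0525) and in 14 of 30 alternatives in all. Cyp24a1 had a log2 fold change of 0.07 ± 0.27 (adjusted p = 0.833), cyp27b1 of 0.06 ± 0.25 (adjusted p = 0.858) and vdra of 0.07 ± 0.20 (adjusted p = 0.772). The 3 members called compare with 63.7% of all genes. Whether the stage effect differed between genotypes was not tested.

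In UVB-exposed embryos stage and time since exposure cannot be told apart. The levels of these groups and the UVB effect at each time were part of the rule that chose the genes. The p-values of this paragraph are therefore a description and give no support. There cyp27b1 was higher at 48 hpf than at 29 hpf by 1.89 ± 0.26 in Meevs (edgeR adjusted p = 3.57e-07) and by 0.54 ± 0.24 in WT (adjusted p = 0.0494, lost in 14 of 30 alternatives). Trpv6 was higher by 0.96 ± 0.23 in Meevs (adjusted p = 0.000501) and by 1.21 ± 0.22 in WT (adjusted p = 2.64e-05). Cyp24a1 was higher by 0.79 ± 0.16 in Meevs (adjusted p = 7.6e-05), while in WT its log2 fold change was -0.40 ± 0.19 (adjusted p = 0.0633, under 0.05 in 3 of 30 alternatives). Cyp2r1 and both receptors did not pass the test in either genotype. The calls were 3 in Meevs, against 68.8% of all genes, and 2 in WT, against 68.5%.

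**Figure D4:**
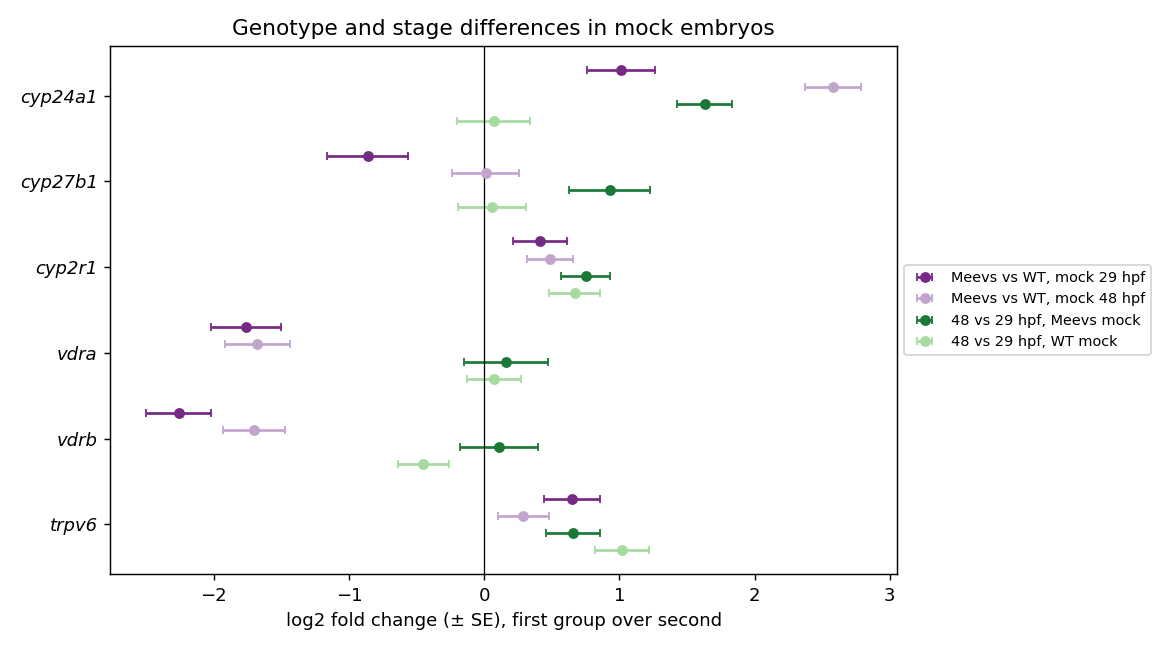
Log2 fold change (x axis, ± SE) of the 6 genes in mock embryos, for Meevs over WT at 29 and 48 hpf and for 48 over 29 hpf in each genotype. Vdra and vdrb lie between -2.26 and -1.68 for the genotype, and cyp24a1 has a stage difference of 1.63 in Meevs and 0.07 in WT.

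The other genes of the pathway were read from 4 lists that leave the 6 genes out: supply of vitamin D (17 genes tested), receptor partners and coregulators (19), calcium and phosphate hormones (17), and calcium and phosphate transport and targets (26). The partners and coregulators were mostly lower in Meevs. In mock embryos 15 of 19 fell below WT and 1 was higher at 29 hpf, 84.2% called against 47.7% of all genes, with a median log2 difference of -0.72 against 0.03 for all genes. At 48 hpf the counts were again 15 and 1, 84.2% against 52.7%, with a median of -0.76 against 0.02. Ncoa1, a steroid receptor coactivator, averaged 3.96 ± 0.736 CPM in Meevs and 14.2 ± 1.89 CPM in WT mock embryos at 29 hpf (SD, n = 3 each; log2 -1.84 ± 0.15, edgeR adjusted p = 1.01e-09), and its log2 difference was -1.89 ± 0.14 at 48 hpf (adjusted p = 2.06e-10). Rxrba, which encodes a retinoid X receptor, differed by -1.02 ± 0.11 at 29 hpf and -1.04 ± 0.11 at 48 hpf (adjusted p = 9.39e-08 and 3.24e-08). Ncoa3 differed by -0.61 ± 0.06 at 29 hpf and by -0.52 ± 0.06 at 48 hpf (adjusted p = 9.35e-09 and 6.69e-08).

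Another retinoid X receptor gene, rxrga, named here because it alone of the list was called higher, went the other way. Its log2 differences were 0.51 ± 0.14 at 29 hpf and 0.61 ± 0.13 at 48 hpf (edgeR adjusted p = 0.00485 and 0.000444). Of the 19 partners and coregulators, 17 have spans over 30 kb, against 30.2% of all genes tested, and the median over genes of such spans was below 0 in Meevs, as given above. The part of gene span in the list's difference was not tested.

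**Figure D5:**
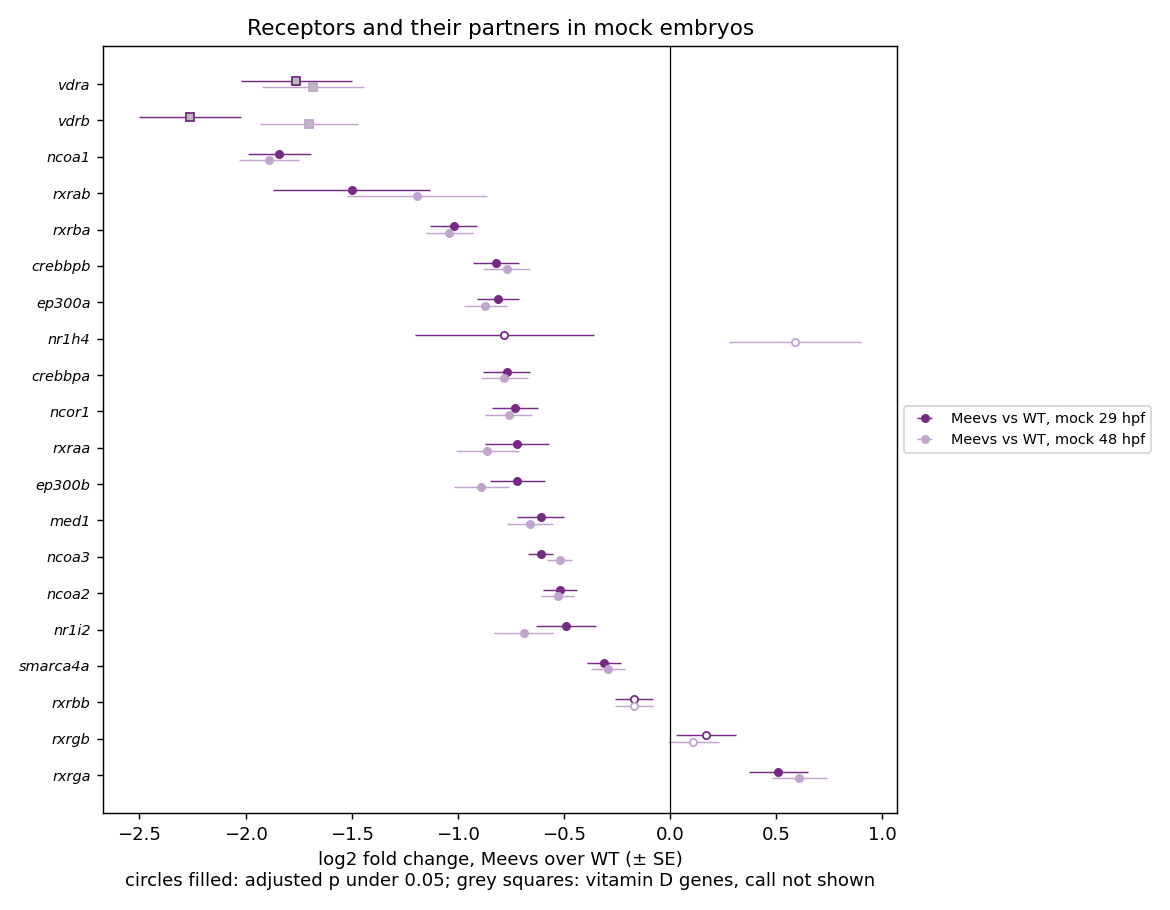
Log2 fold change of Meevs over WT (x axis, ± SE) in mock embryos at 29 and 48 hpf for vdra and vdrb (grey squares) and 18 of the 19 partners and coregulators (circles, filled where the adjusted p is under 0.05). Of the 18 shown, 14 lie below 0 with a call at each stage, as the receptors lie below 0, ncoa1 lowest near -1.8, and rxrga lies above 0.

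The other lists divided in mock embryos. Of the supply genes 4 were higher and 4 lower in Meevs at 29 hpf and 6 and 3 at 48 hpf, which is 47.1% and 52.9% called, near the 47.7% and 52.7% of all genes. Among them was lrp2a, which encodes the megalin that takes up the vitamin D carrier (-0.63 ± 0.09, adjusted p = 4.81e-06, and -0.77 ± 0.09, adjusted p = 2.28e-07). Fdx1, the ferredoxin that passes electrons to mitochondrial hydroxylases, was higher by 0.51 ± 0.10 and 0.73 ± 0.10 (adjusted p = 9.72e-05 and 5.7e-07). Of the hormone genes 2 were higher and 3 lower at 29 hpf, and 1 and 4 at 48 hpf, 29.4% called at each stage and below the share of all genes, with log2 differences of -0.63 ± 0.08 and -0.66 ± 0.08 for fgfr1a, a receptor of fibroblast growth factors (adjusted p = 3.65e-07 and 1.65e-07). Of the transport and target genes 6 were higher and 9 lower at 29 hpf, and 9 and 11 at 48 hpf, which is 57.7% and 76.9% called. Among them were calb2a, which encodes the calcium-binding calretinin (1.3 ± 0.12 at 29 hpf, adjusted p = 3.92e-09), and sp7, the osteoblast transcription factor (-1.42 ± 0.16 at 29 hpf, adjusted p = 8.35e-08).

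After UVB, 10 of the 79 pathway genes rose and 13 fell in Meevs at 5 h, 29.1% called against 34.4% of all genes. At 24 h 15 rose and 8 fell in Meevs, 29.1% called against 20.4%. In WT 3 rose and 5 fell at 5 h, 10.1% against 12.7%, and 0 rose and 2 fell at 24 h, 2.53% against 2.24%. The WT count at 5 h was 2 to 13 when 1 library was left out, moving most without replicates 1 or 2 of WT UVB 5 h, replicate 3 of WT mock 5 h or replicate 3 of Meevs mock 5 h. The WT count at 24 h was 0 to 2, and dropped without any WT library of 24 h except WT UVB 24 h replicate 1. At 5 h the plasma membrane calcium pump gene atp2b4 fell in Meevs, to 51.2 ± 4.69 CPM after UVB against 94.8 ± 3.94 CPM in mock embryos (SD, n = 3 each; log2 -0.89 ± 0.07, edgeR adjusted p = 5.17e-11). It fell in WT by 0.31 ± 0.06 on the log2 scale (adjusted p = 0.00132). Calb2a fell in all 4 comparisons, by 0.56 ± 0.11 and 0.63 ± 0.08 in Meevs at 5 h and 24 h (adjusted p = 0.000174 and 1.42e-06) and by 0.49 ± 0.13 and 0.31 ± 0.08 in WT (adjusted p = 0.0182 and 0.0364), the last call being lost in 6 of 30 alternatives. Lrp2a fell in Meevs at 5 h (-0.75 ± 0.10, adjusted p = 7.77e-07) but rose in Meevs at 24 h (0.28 ± 0.09, adjusted p = 0.0388).

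At 24 h in Meevs the parathyroid hormone genes pth1a (1.78 ± 0.38, edgeR adjusted p = 0.00107) and pth1b (1.59 ± 0.39, adjusted p = 0.00359) rose after UVB. Pth1a averaged 1.35 ± 0.156 CPM after UVB and 0.379 ± 0.112 CPM in mock embryos (SD, n = 3 each). The lowest library had 6 counts of pth1a and 4 of pth1b. In WT pth1b rose at the other time, 5 h (1.07 ± 0.32, edgeR adjusted p = 0.0293, called in 26 of 30 alternatives). The difference of its UVB effects at 5 h, Meevs minus WT, was -0.93 ± 0.47 (edgeR adjusted p = 0.286). At 24 h in WT it had 0.88 ± 0.47 (adjusted p = 0.426), and pth1a had 0.14 ± 0.43 (adjusted p = 0.939). The difference of the UVB effects at 24 h was not called for pth1a (adjusted p = 0.17) or pth1b (adjusted p = 0.706). The phosphate transporter gene slc20a1a rose by 0.84 ± 0.11 (adjusted p = 3.63e-06) and the calcium-permeable channel gene trpv4 by 0.79 ± 0.12 (adjusted p = 1.58e-05). Slc20a1a is also a pronephros marker, and 5 of 11 such markers rose (45.5% called, against 20.4% of all genes). Among the 5 were slc20a1a itself, lrp2a of the supply list and atp1a1a.4, which is also an ionocyte marker. The sum of the 11 was 309 to 346 CPM in Meevs UVB and 249 to 297 CPM in Meevs mock libraries at 24 h. The part of the pronephros markers was not tested. Gc, which encodes the vitamin D binding protein of the blood, fell to 1.3 ± 0.0823 CPM after UVB, against 3.17 ± 0.138 CPM in mock embryos (SD, n = 3 each; log2 -1.29 ± 0.29, adjusted p = 0.00182). In WT edgeR called 0 of the 17 supply genes at 5 h and 0 at 24 h, where 5 and 3 had an unadjusted p under 0.05 and DESeq2 called 3 and 0. Stc1l, a stanniocalcin gene, fell in WT at 24 h (-1.47 ± 0.35, edgeR adjusted p = 0.0192), a call lost in 3 of 30 alternatives. It averaged 0.801 ± 0.305 CPM after UVB and 2.22 ± 0.397 CPM in WT mock embryos, and its lowest library had 1 count. In Meevs at 24 h stc1l had -0.37 ± 0.32 (edgeR adjusted p = 0.465). The difference of its UVB effects, Meevs minus WT, was not called (1.1 ± 0.48, edgeR adjusted p = 0.293).

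With stage in mock embryos, 28 of the 79 pathway genes rose and 17 fell in Meevs, and 26 rose and 20 fell in WT. These are 57% and 58.2% called, against 60.2% and 63.7% of all genes. Calb2a rose by 2.43 ± 0.09 in Meevs and 3.04 ± 0.10 in WT (edgeR adjusted p = 2.44e-17 and 1.58e-18), and the calcium pump gene atp2b2 by 2.79 ± 0.17 and 2.84 ± 0.15 (adjusted p = 1.36e-13 and 7.25e-15). Fdx1b rose by 2.48 ± 0.33 in Meevs (adjusted p = 3.9e-07). Calca rose by 1.44 ± 0.18 in Meevs and 1.51 ± 0.19 in WT (adjusted p = 1.02e-07 and 9.3e-08), in the direction of cyp2r1, with which it overlaps.

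The genes whose levels ran most like each member over the 24 libraries, by Pearson's r of log2 CPM, are given as a description, since the libraries share groups. For cyp24a1 they were the kinase gene sgk1 (r = 0.948), ier2a (0.929) and phlda2 (0.929), with r within Meevs of 0.92, 0.85 and 0.87 and within WT of 0.82, 0.85 and 0.94 (n = 12 libraries each). For trpv6 they were the cadherin gene cdh26.2 (0.935), scinla (0.928) and ch25hl1.1 (0.923), with r of 0.92 to 0.95 within each genotype. For cyp27b1 they were prkcdb (0.883), crema (0.869) and uroc1 (0.853), with r within Meevs of 0.96, 0.89 and 0.91 and within WT of 0.88, 0.71 and 0.67. For cyp2r1 they were slc22a21 (0.862), dnm1l (0.843) and ube2e2 (0.838), with r within Meevs of 0.86, 0.82 and 0.91 and within WT of 0.82, 0.8 and 0.75. The genotypes form separate clusters for the receptors, so r is given within each: for vdra it was 0.82 and 0.69 (Meevs and WT) with aff4, 0.77 and 0.78 with emsy, and 0.75 and 0.57 with fam168a. For vdrb it was 0.81 and 0.81 with tmod2, 0.72 and 0.83 with ppp3ccb, and 0.79 and 0.61 with rcbtb2. Between vdra and vdrb r was 0.41 within Meevs and 0.09 within WT, and between cyp24a1 and trpv6 it was -0.37 and -0.64.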

How the data were processed

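Read counts per gene, whole numbers, are what the authors deposited, with no normalization. The submitters' processing notes name GRCz11, DESeq2 1.36.0, featureCounts 1.6.3, STAR 2.7.9a and cutadapt 1.16, and no settings or strand mode for them are known here. Trizol RNA went into directional poly(A)-selected libraries, per the labels' protocols. Genes with low counts were removed (filterByExpr by group), libraries were scaled by TMM, and edgeR 4.0.16 (R 4.3.3) fitted 1 mean per group over all 24 libraries. Quasi-likelihood tests were adjusted by Benjamini-Hochberg over 22340 genes, with calls at an adjusted p under 0.05. The procedure was tested on simulated data. Replicate pairs differed by 4.2 to 23 times the sampling noise (chi-square per degree of freedom), so none was counted as 1 sample. Gene names, positions and spans are those of the deposited tables.

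The 6 members and the lists were chosen with earlier results of these data known. The text names all members and, from each pathway list and comparison, genes among the 3 with the smallest adjusted p, some of them again where other comparisons are set beside. The totals of the lists include 1 gene whose own values are not reported here. Calca (overlap), rxrga, the ionocyte examples and the partner gene of trpv6 were chosen after their values were seen. Genes most like a member are the 3 with the highest r among genes with a mean log2 CPM of at least 1. Genes without a symbol, or with a clone or locus placeholder as symbol, were left out. Ranking by Spearman's correlation instead shared 0 of the 3 genes for vdra. It shared 1 for cyp24a1, cyp27b1 and cyp2r1 each, and 2 for vdrb and trpv6 each. Alternatives were DESeq2 1.42.0, its size factors, no filter, only the compared groups, a replicate block, each library left out, and, chosen after seeing the data, 4 libraries left out together.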

Additional observations from a re-analysis of the deposited data

Results flagged for a closer look

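For 6 pathway genes the UVB effect differed between genotypes in the test of the difference itself (edgeR, Meevs minus WT, log2). They are 3 of 79 at each time, 3.8% called, against 5.12% of all genes at 5 h and 2.40% at 24 h, a share near that of all genes. At 5 h the calcium pump gene atp2b4 had a difference of -0.57 ± 0.09 (adjusted p = 0.000209), with effects of -0.89 ± 0.07 in Meevs and -0.31 ± 0.06 in WT. Lrp2a, the megalin gene, differed by -0.49 ± 0.13 (adjusted p = 0.0264, lost in 5 of 30 alternatives), with effects of -0.75 ± 0.10 in Meevs and -0.25 ± 0.09 in WT. Rxrba, a retinoid X receptor gene, differed by 0.57 ± 0.16 (adjusted p = 0.0291), with effects of 0.69 ± 0.11 in Meevs and 0.12 ± 0.11 in WT, and this call was lost in 13 of 30 alternatives.

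At 24 h the phosphate transporter gene slc20a1a differed by 0.74 ± 0.16 (adjusted p = 0.00917), with effects of 0.84 ± 0.11 in Meevs and 0.09 ± 0.12 in WT. The channel gene trpv4 differed by 0.68 ± 0.17 (adjusted p = 0.0221, lost in 5 of 30 alternatives), with effects of 0.79 ± 0.12 in Meevs and 0.11 ± 0.12 in WT. The binding protein gene gc differed by -1.48 ± 0.40 (adjusted p = 0.0412, lost in 11 of 30 alternatives), with effects of -1.29 ± 0.29 in Meevs and 0.19 ± 0.27 in WT. All 6 differences rest on genotypes that cannot be told apart from library series.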

How the results depend on the processing

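The log2 fold changes of cyp24a1 and trpv6 with UVB were followed over the 30 alternatives. For cyp24a1 at 5 h they ran from 2.05 to 2.38 in Meevs and from 1.58 to 1.78 in WT. At 24 h they ran from 1.19 to 1.55 in Meevs and from 1.14 to 1.33 in WT. For trpv6 at 5 h they ran from -1.48 to -1.25 in Meevs and from -1.38 to -0.71 in WT. At 24 h they ran from -1.22 to -0.79 in Meevs and from -0.85 to -0.69 in WT. These contrasts chose the members, so the ranges are a description and give no support. No direction of a called member turned round.

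With DESeq2 the stage effects lost their calls in vdrb (WT mock, -0.43) and cyp27b1 (WT UVB, 0.54), members called in WT UVB numbered 1, pathway genes called with UVB in WT at 5 h numbered 13 and genes whose UVB log2 fold change was called higher in Meevs than in WT at 5 h numbered 686 (452 as reported). DESeq2 size factors gave the same -0.43, 0.54 and 1. The samples share only a replicate number (2 of 24 pairs had a correlation over 0.1). With the replicate block the stage effect was -0.44 for vdrb (WT mock) and 0.54 for cyp27b1 (WT UVB), both no longer called, -0.41 for cyp24a1 (WT UVB), now called, and pathway genes called in WT at 24 h numbered 1. With only the compared groups in the fit, cyp24a1 was called in WT UVB (-0.38), 2 pathway genes were called in WT at 5 h, genes called in WT at 5 h numbered 1808 (2842 as reported) and those with a UVB log2 fold change called higher in Meevs than in WT at 5 h 160. With the 4 libraries left out together, vdrb had -0.17 for UVB in Meevs at 24 h and -0.15 for its genotype difference, trpv6 had 0.05 for the genotype difference at 5 h, cyp27b1 in WT UVB (0.52) lost its stage call and cyp2r1 (0.51) gained one. Then 14 pathway genes were called in WT at 5 h and 7 at 24 h, of 4274 and 1189 genes called. The cause was not tested.

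Leaving out each library in turn, the stage effects ranged from -0.60 to -0.24 (vdrb, WT mock), 0.52 to 0.58 (cyp27b1, WT UVB), 0.36 to 0.84 (cyp2r1, WT mock), 0.54 to 1.25 (cyp27b1, Meevs mock), 0.45 to 0.89 (trpv6, Meevs mock) and -0.46 to -0.29 (cyp24a1, WT UVB). UVB effects ranged from -1.48 to -1.25 (trpv6, Meevs 5 h) and -0.17 to 0.56 (vdrb, Meevs 24 h). Their genotype differences at 5 h ranged from 0.36 to 0.69 (cyp24a1), -0.58 to 0.09 (trpv6), 0.20 to 0.71 (vdra) and 0.01 to 0.46 (cyp27b1), and at 24 h from -0.03 to 0.35 (cyp24a1), -0.44 to -0.03 (trpv6), -0.58 to -0.09 (cyp2r1), -0.25 to 0.46 (vdrb), 0.37 to 1.1 (cyp27b1) and 0.07 to 0.41 (vdra). Members called numbered 1 to 3 for stage in WT UVB, 1 to 3 for stage in WT mock and 1 to 2 for UVB in WT at 5 h and at 24 h. Pathway genes called with UVB numbered 2 to 13 in WT at 5 h and 0 to 2 at 24 h, and with a genotype difference 1 to 4 at 5 h and 1 to 3 at 24 h. Genes called with UVB in WT ranged from 1373 to 3393 at 5 h and from 274 to 745 at 24 h (501 as reported), and the genotype difference at 24 h from 355 to 622 (536). The calls for cyp27b1 between genotypes at 29 hpf and for cyp2r1 at 48 hpf were each lost in 4 of 30 alternatives. The UVB and genotype contrasts chose the members, so nothing is read from member calls in them. Low counts limit the precision for members with few reads, such as vdra.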
